A study of Mus musculus with 6 samples.

Results

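Imprinted genes are genes of which mammalian cells transcribe mainly the copy inherited from the mother or mainly the copy inherited from the father. A set of 39 of them was described in the brains of newborn mice, out of 24391 gene symbols in the table of read counts. The members were chosen as a list of symbols of known mouse imprinted genes, both protein-coding and non-coding, and each of the 39 had a row. From general knowledge of the mouse, 22 are expressed mainly from the paternal copy and 13 mainly from the maternal copy. The other 4 (Grb10, Gnas, Blcap and Inpp5f) were kept apart because the active copy depends on the cell type or on the transcript. Cell type also matters for some genes left in the classes, such as Ube3a and Igf2r, so the split is coarse. Counts per gene do not separate the parental copies, so the classes are background and allele use was not measured.

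RNA came from hemibrains of mouse pups at postnatal day 0, 3 of genotype Celf2 -/- (null) and 3 of genotype Celf2 +/- (heterozygous). Celf2 encodes an RNA-binding protein of neurons that acts on splicing and on the fate of messenger RNA. The heterozygous controls carry 1 mutant allele too, so each comparison sets null pups against carriers, with no wild-type group. Pups are numbered 2, 4 and 10 in the null group and 6, 7 and 11 in the heterozygous group, and values of single libraries are given in these orders throughout. Litter, batch and the design of the allele are not in the labels, so that p-values measure the spread between these samples only.

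Imprinted genes lie in groups under shared control regions whose DNA is methylated on 1 parental copy. Many of the paternally expressed genes promote growth or resource demand of the young, while several maternally expressed genes restrain growth. In brain several of them are rich in the hypothalamus, and loss of the paternally expressed genes of the Prader-Willi region or of maternal Ube3a causes human neurodevelopmental syndromes.

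Library totals ran from 28831997 to 36531980 counts, of which the members took between 1.12% and 1.45%. The 8 neuron markers were detected in every library, with summed levels of 7476 to 7890 CPM (counts scaled to 1000000 per library, with TMM library sizes) in null and 7172 to 8159 CPM in heterozygous libraries. Celf2 itself was at 448, 390 and 331 CPM in libraries labelled null and at 459, 403 and 362 CPM in heterozygous libraries, with a log2 fold change of -0.07 (edgeR adjusted p = 0.955). A total over the gene does not tell which exons the reads cover, and so it does not check the genotype labels. Some libraries stood apart: the ribosomal RNA precursor Rn45s took 11.8% of counts in null replicate 2 and 0.194% to 1.27% in the others. The summed level of 8 immediate-early genes was 296, 922 and 45.8 CPM in null libraries and 64.3, 49.3 and 49.9 CPM in heterozygous libraries. The summed level of 8 hindbrain Hox genes did not overlap between the groups. It was 3.585, 5.93 and 2.01 CPM in null and 18.1, 113 and 9.74 CPM in heterozygous libraries, with heterozygous replicate 7 far above the others. Each of the 5 tested was lower in null at an unadjusted edgeR p under 0.05. Of all genes 2.93% were lower at that unadjusted p. EdgeR called 0 of these 5 Hox genes (lowest adjusted p = 0.438) and DESeq2 called 4, against 0.402% of all genes. The 6 astrocyte markers, summed, did not overlap either, with 733 to 1002 CPM in null and 1073 to 1198 CPM in heterozygous libraries. All 6 had negative log2 fold changes, null over heterozygous, with a median of -0.38. Of the 6, 4 were lower at an unadjusted edgeR p under 0.05, against 2.93% of all genes, and 0 were called (lowest adjusted p = 0.488). The Y-linked gene Ddx3y was at 65.5, 0 and 0 CPM in null and 66.0, 0 and 80.0 CPM in heterozygous libraries. Xist, the RNA of the inactive X chromosome, was at 0.315, 1346 and 1275 CPM in null and 0.565, 1140.3 and 0.627 CPM in heterozygous libraries. By these genes 1 null and 2 heterozygous libraries are male, so sex is unevenly spread over the groups, and a fit with it as a covariate is given beside the results it moves. What part the other differences have in the values below was not tested.

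The newborn brain expressed 38 of the 39 members well enough to test, over a wide range of levels. Levels of different genes are compared as CPM per kilobase, with the deposited gene lengths. Nnat, which encodes the small membrane protein neuronatin, was the highest at 1727 CPM per kilobase in null and 1833 in heterozygous libraries. It was followed in both groups by Ndn, a MAGE family protein of postmitotic neurons, at 319.6 and 341 CPM per kilobase. The long non-coding RNA Meg3 was at 259.8 and 315, and its neighbour Rian at 256 and 267 CPM per kilobase. Gnas, the stimulatory G protein alpha subunit, was at 208 and 212 CPM per kilobase. At the other end, the long non-coding RNAs Airn and Kcnq1ot1 lay below 1 CPM per kilobase in every library, and so did Slc22a18 and Phlda2, with Rtl1 close to 1. Phlda2, a regulator of placental growth, was the member that did not pass the low-count filter, with 1, 1 and 3 counts in null and 9, 8 and 4 counts in heterozygous libraries. All null values of Phlda2 were the lower ones, at counts too few to test. Slc22a18, a transporter of the same domain, passed the filter. It had 15, 13 and 13 counts in null and 9, 15 and 10 counts in heterozygous libraries. At least 10 counts were reached in 3 null and 2 heterozygous libraries, so it passed by means of the null libraries, where its mean level was higher.

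**Figure D1:**
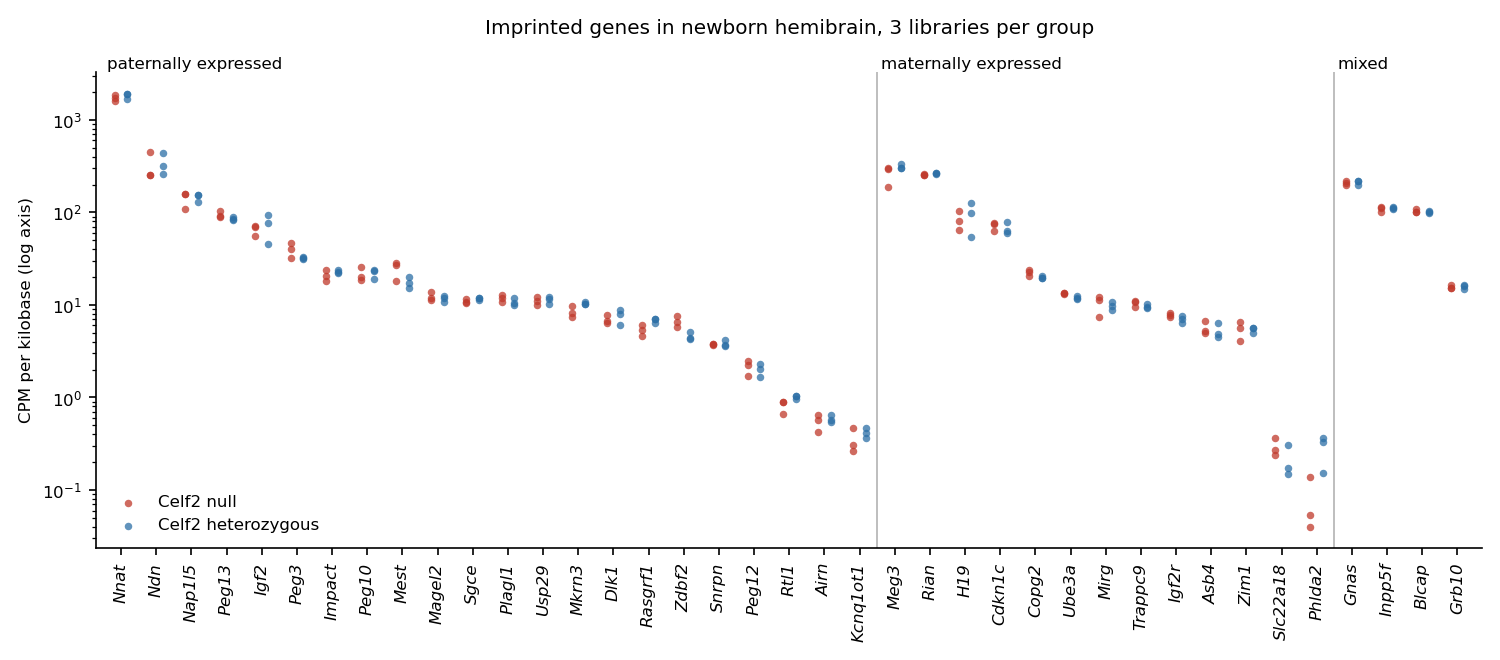
Level of each of the 39 imprinted genes in CPM per kilobase (log axis), with 1 point per library, null libraries left of heterozygous libraries, ordered by parental class and level. Nnat stands highest, near 1727 CPM per kilobase in null and 1833 in heterozygous libraries, and in most genes the points of the 2 groups lie at the same height.

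No member passed an adjusted p of 0.05 between null and heterozygous brains in edgeR's quasi-likelihood test, adjusted over all 15925 genes tested (0 of 38). Over all genes this test called 1, or 0.00628%. At an unadjusted p of 0.05 the same test counted 5 of the 38 members (13.2%), against 7.06% of all genes, and DESeq2 called 1 member, Zdbf2 (adjusted p = 0.0104), against 0.402% of all genes. All 5 are paternally expressed, as are 22 of the 38 tested members. Zdbf2, Mest and Peg3 had higher averages in null libraries, and Rasgrf1 and Mkrn3 had lower ones. By direction, 3 members were higher at that threshold, against 4.13% of all genes, and 2 lower, against 2.93%. With no overlap between the groups there were 7 of the 38 (18.4%), against 12.7% of all genes. These were Zdbf2, Peg13 and Ube3a with all null libraries above all heterozygous ones, and Meg3, Rtl1, Mkrn3 and Rasgrf1 with all null libraries below. For direction, 6.21% of all genes had null libraries above and 6.47% below without overlap. With Y-linked expression as a covariate 3 of the 5, namely Zdbf2, Mest and Rasgrf1, were below 0.05 (7.89%), against 7.62% of all genes. Over the 6 fits without a single library, 7 members outside the 5 went below 0.05 at least once. The share of all genes that did so at least once was not computed, so this count has no background. In each such fit 7.89% to 15.8% of the members and 3.70% to 9.69% of all genes were below 0.05. With 38 members these shares rest on few genes, and members of 1 domain are not independent of each other. The list was also chosen with earlier results of these data known.

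The classes had medians near that of all genes. Of the 22 paternally expressed members 7 had positive and 15 negative log2 fold changes, null over heterozygous, with a median of -0.07. Of the 12 maternally expressed members tested, 9 were positive and 3 negative, with a median of 0.09, and of the 4 others 1 was positive and 3 negative, with a median of -0.02. The median over all genes tested was -0.001. Of the 38 fold changes, 29 (76.3%) were smaller than 0.2 in size, as were 75.7% of those of all genes. The difference between the parental classes was not tested, and the maternal median was -0.004 without null replicate 4 and -0.002 without heterozygous replicate 11. For 24 members the 95% interval of the fold change lay within -0.5 to 0.5.

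**Figure D2:**
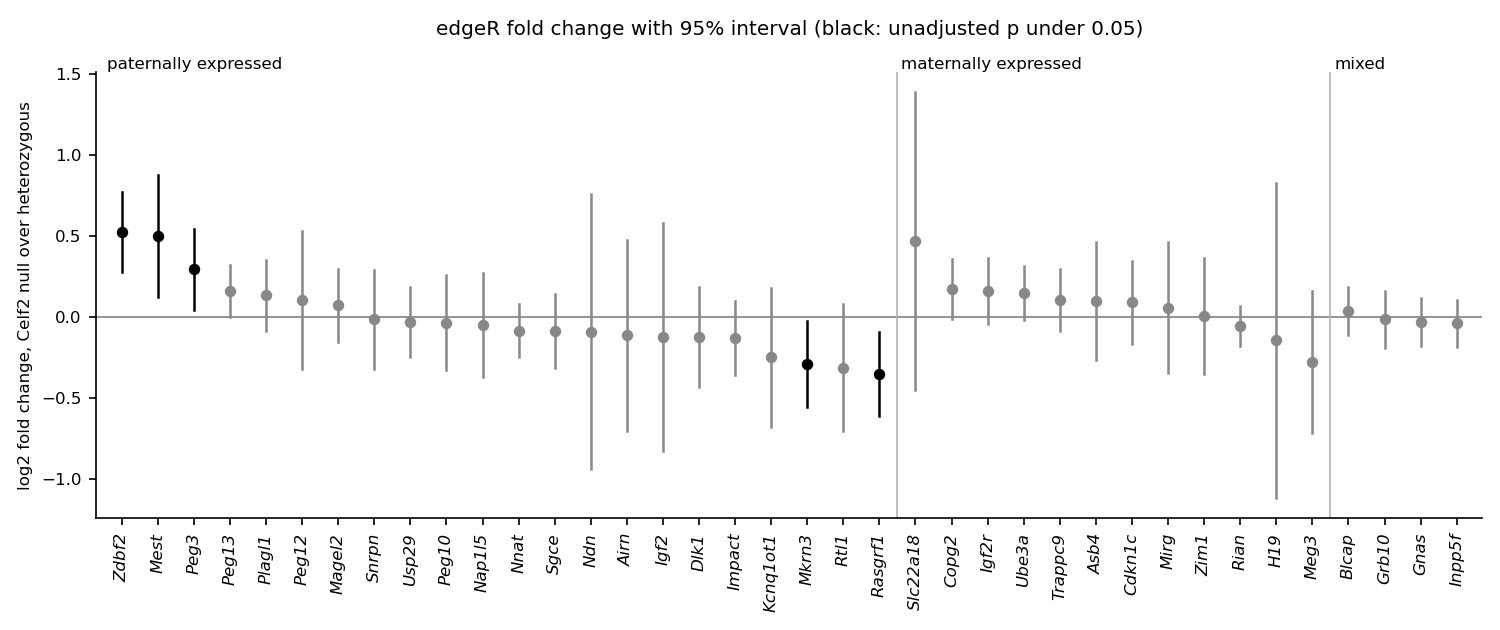
log2 fold change, null over heterozygous, of the 38 tested members with its 95% interval from edgeR, ordered by parental class and size, with members at an unadjusted p under 0.05 in black. The 5 black points, Zdbf2 at 0.52 down to Rasgrf1 at -0.35, are all in the paternal class, which holds 22 of the 38. Of the 38 intervals 33 reach across 0.

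Zdbf2 gave the smallest p of the set. It encodes a zinc finger protein, and its paternal copy is known in mice for a role in hypothalamic control of feeding. Zdbf2 was at 85.5, 98.9 and 76.0 CPM in null libraries and 67.1, 57.4 and 56.6 CPM in heterozygous libraries. Each null library lay above each heterozygous library. The estimated log2 difference was 0.52 (null over heterozygous, SE 0.11, 95% interval 0.28 to 0.77; edgeR unadjusted p = 0.000667, adjusted p = 0.368). It lay between 0.42 and 0.61 when each library was left out in turn, and its unadjusted p stayed below 0.05 in each of the 16 other settings tried, among which DESeq2 gave the 1 call. In bulk tissue a change in the number of cells of a type and a change in RNA per cell cannot be told apart, here and for every member.

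RefSeq (GRCm38.p6) lists a start of Zdbf2 far upstream of the other. Both windows, from 250 bases before to 50 after the start, are shown because Zdbf2 is the member with the smallest p, and because they differ in the hexamer TGCCGC, the sequence that the imprint-protecting zinc finger protein ZFP57 recognises when it is methylated. Capitals mark TGCCGC or, on the other strand, its reverse complement.
Zdbf2 window at chr1:63200108-63200407, plus strand: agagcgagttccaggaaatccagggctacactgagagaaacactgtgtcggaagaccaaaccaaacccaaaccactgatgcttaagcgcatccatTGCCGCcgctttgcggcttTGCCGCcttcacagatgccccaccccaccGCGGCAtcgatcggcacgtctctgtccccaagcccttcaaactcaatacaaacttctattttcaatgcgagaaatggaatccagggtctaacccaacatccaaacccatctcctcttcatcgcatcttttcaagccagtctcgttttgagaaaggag
Zdbf2 window at chr1:63273019-63273318, plus strand: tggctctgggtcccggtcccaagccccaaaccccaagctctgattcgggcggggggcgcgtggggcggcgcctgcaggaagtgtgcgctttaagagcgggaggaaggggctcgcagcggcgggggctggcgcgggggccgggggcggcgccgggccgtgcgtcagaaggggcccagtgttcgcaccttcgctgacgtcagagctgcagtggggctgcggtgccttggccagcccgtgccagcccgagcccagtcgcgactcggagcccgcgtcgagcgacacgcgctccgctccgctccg
The upstream window holds the hexamer 3 times and 15 CpG dinucleotides, and the downstream window holds it 0 times with 38 CpG. Over the 46 RefSeq windows of 31 members, 12 windows (26.1%) held the hexamer on either strand, and 11.6% of all 32851 mouse windows did. The member windows had a median of 14.5 CpG and all windows a median of 7, so the windows also differ in the letters that make up the hexamer. The gene table does not say which start was used.

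Mest encodes an enzyme-like protein of the alpha/beta hydrolase family and is maternally methylated at its promoter. It was at 74.97, 79.8 and 50.7 CPM in null libraries and 47.9, 55.6 and 42.2 CPM in heterozygous libraries. Null replicates 2 and 4 were above all heterozygous libraries, while null replicate 10 lay below heterozygous replicate 7. On the log2 scale Mest differed by 0.50 (SE 0.17, 95% interval 0.12 to 0.87; edgeR unadjusted p = 0.0147, adjusted p = 0.597). Its unadjusted p passed 0.05 without null replicate 2 (0.0522), without null replicate 4 (0.0618, fold change 0.37) and without heterozygous replicate 11 (0.0616). Null replicates 2 and 4 are also those with the high immediate-early genes given above, whose part in this was not tested. The Mest window at chr6:30737803-30738102 overlaps the one shown here and also holds TGCCGC 2 times, and the one at chr6:30733256-30733555 holds it 0 times. The windows of Peg3 and Rasgrf1 hold it 0 times. Those of Nap1l5 and Zim1, with fold changes of -0.05 and 0.00, hold it 2 times and 1 time. No link between the hexamer and fold changes was tested. The window shown was picked because it holds TGCCGC, as the upstream Zdbf2 window does. Its 2 copies are on the other strand and in capitals.
Mest window at chr6:30737800-30738099, plus strand: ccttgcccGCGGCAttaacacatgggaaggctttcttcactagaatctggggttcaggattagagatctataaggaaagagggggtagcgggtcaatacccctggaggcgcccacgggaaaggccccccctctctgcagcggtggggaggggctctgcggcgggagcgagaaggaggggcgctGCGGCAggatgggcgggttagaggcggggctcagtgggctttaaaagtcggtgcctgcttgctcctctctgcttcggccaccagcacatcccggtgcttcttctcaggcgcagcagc
An intron of Mest holds Mir335, whose hairpin row had 1, 1 and 0 counts in null and 1, 0 and 0 counts in heterozygous libraries. The mature miRNA has no row of its own and was not measured. Its 5p product, with the seed (bases 2 to 8) in capitals, reads as follows.
mmu-miR-335-5p: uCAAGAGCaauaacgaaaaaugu

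Copg2, a coatomer subunit that is expressed mainly from the maternal copy in brain, overlaps the end of Mest on the other strand. Copg2 was at 90.5, 96.9 and 82.2 CPM in null libraries and 83.1, 77.7 and 78.7 CPM in heterozygous libraries, with a log2 fold change of 0.17 (edgeR unadjusted p = 0.0688, adjusted p = 0.735). Heterozygous replicate 6 lay above null replicate 10, so the groups overlapped. No source used here names the strand setting of the counting, so reads in the overlap of Mest and Copg2 cannot be assigned.

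Peg3 encodes a large zinc finger protein that in mice affects growth and maternal behaviour. Peg3 was at 214, 309 and 264 CPM in null libraries and 209.8, 216 and 217 CPM in heterozygous libraries. The heterozygous libraries lay close together, and null replicate 2 was among them. For Peg3 the log2 value was 0.29 (SE 0.11, 95% interval 0.04 to 0.54; edgeR unadjusted p = 0.0253, adjusted p = 0.639), and 0.16 without null replicate 4 (unadjusted p = 0.121). The unadjusted edgeR p of Peg3 was above 0.05 without any other single library except null replicate 2, the lowest of these being 0.0503 without heterozygous replicate 7. It was 0.173 with library size alone (log2 value 0.22) and 0.0832 with the Y-linked covariate (log2 value 0.21). Usp29, which encodes a ubiquitin protease, starts 147 bases from Peg3 on the other strand in GRCm38, and 263 bases of their 300-base promoter windows are shared. Usp29 was at 86.0, 93.0 and 76.9 CPM in null libraries and 94.2, 89.1 and 78.3 CPM in heterozygous libraries, which overlap, with a log2 fold change of -0.03 (95% interval -0.25 to 0.19). The maternally expressed zinc finger gene Zim1 of the same domain was at 19.5, 22.9 and 14.3 CPM in null libraries and 19.7, 19.6 and 17.3 CPM in heterozygous libraries, with a fold change of 0.00. The interval of Usp29 overlaps that of Peg3, and the difference between Peg3 and its neighbours in response was not tested.

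Rasgrf1, an exchange factor for Ras in neurons that is paternally expressed in neonatal mouse brain, was at 21.9, 25.4 and 28.5 CPM in null libraries and 30.3, 33.2 and 33.2 CPM in heterozygous libraries. Each null library lay below each heterozygous library. This gave a log2 value of -0.35 for Rasgrf1 (SE 0.12, 95% interval -0.61 to -0.09; edgeR unadjusted p = 0.0126, adjusted p = 0.579). Its unadjusted p stayed below 0.05 in each of the 16 other settings, with a fold change of -0.26 without null replicate 2.

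Mkrn3, a RING finger protein of the Prader-Willi region that restrains puberty in humans and mice, was at 21.1, 19.1 and 25.0 CPM in null libraries and 27.5, 26.2 and 26.2 CPM in heterozygous libraries. The groups did not overlap, null replicate 10 being the closest to the heterozygous libraries. Mkrn3 had a log2 value of -0.29 (SE 0.12, 95% interval -0.56 to -0.03; edgeR unadjusted p = 0.0328, adjusted p = 0.659), and -0.21 without null replicate 4 (unadjusted p = 0.124). Its unadjusted edgeR p was below 0.05 without null replicate 10 and above 0.05 without any other single library, and it was 0.0525 with the Y-linked covariate. The promoter window of Mkrn3 is shown because it is 1 of 2 member windows, with that of Ube3a at the other end of the region, that hold the YY1 sequence GCCATNTT on either strand; capitals mark its reverse complement. This sequence was found in 6.05% of all windows and 4.35% of the member windows, and no TGCCGC is in the Mkrn3 window.
Mkrn3 window at chr7:62420104-62420403, minus strand: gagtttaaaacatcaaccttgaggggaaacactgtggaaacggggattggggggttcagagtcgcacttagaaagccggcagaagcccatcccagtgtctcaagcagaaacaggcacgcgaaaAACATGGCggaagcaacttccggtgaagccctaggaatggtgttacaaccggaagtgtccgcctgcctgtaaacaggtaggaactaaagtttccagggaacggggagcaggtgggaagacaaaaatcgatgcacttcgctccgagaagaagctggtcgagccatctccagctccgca

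**Figure D3:**
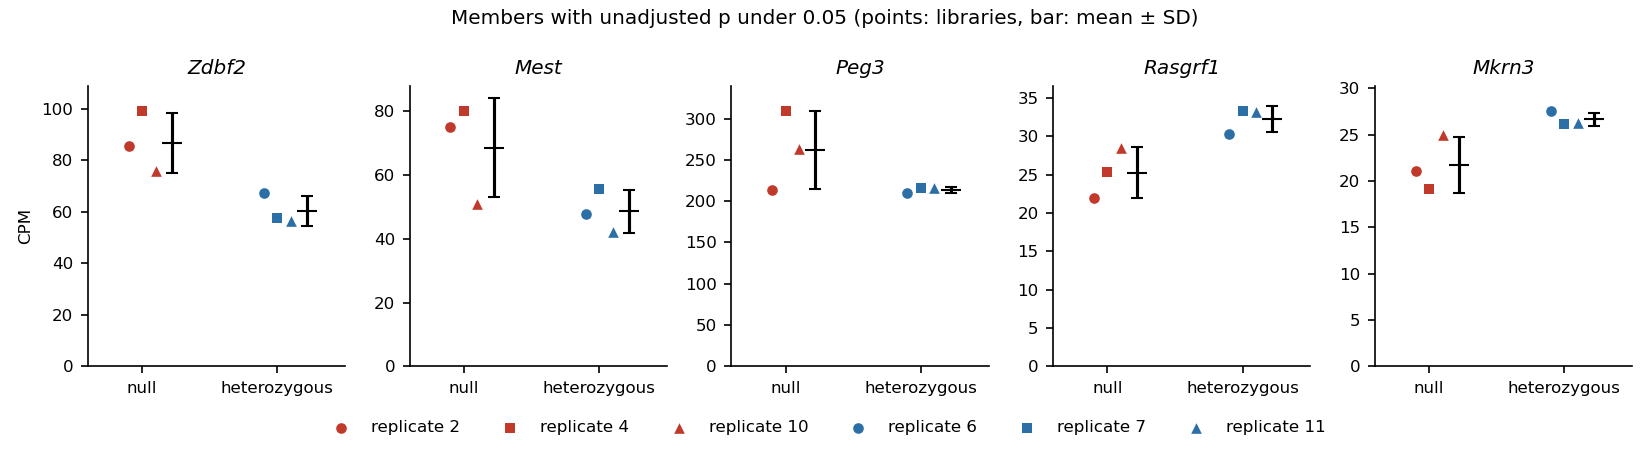
CPM of the 5 members with an unadjusted p under 0.05 in each library, null left and heterozygous right, with the mean and SD of each group beside the points; axes start at 0. Zdbf2, Rasgrf1 and Mkrn3 separate the groups, whereas 1 null library of Mest (50.7 CPM) and 1 of Peg3 (214 CPM) lie among the heterozygous libraries.

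The other paternally expressed genes of the Prader-Willi region had fold changes of both signs, each smaller than 0.2 in size. Ndn was at 417, 419 and 746 CPM in null libraries and 529, 729 and 429 CPM in heterozygous libraries. Null replicate 10 and heterozygous replicate 7 were the high ones and the other 4 libraries lay between 417 and 529 CPM, so the spread within each group was larger than the difference between them (fold change -0.09, 95% interval -0.94 to 0.76). Without null replicate 10 the fold change of Ndn was -0.43, and without heterozygous replicate 7 it was 0.14. Magel2, another MAGE family gene, and Peg12, a relative of the Frat inhibitors of GSK3, had fold changes of 0.07 and 0.10. Snrpn, a core protein of spliceosomes in neurons, was at 8.94, 8.86 and 9.08 CPM in null libraries and 8.72, 9.93 and 8.57 CPM in heterozygous libraries, a range of 1.16 times from lowest to highest. Its fold change was -0.02 (95% interval -0.32 to 0.29). Snurf overlaps Snrpn on the same strand, and its row had 0, 1 and 0 counts in null and 0, 0 and 0 counts in heterozygous libraries. How reads shared by both genes were counted is not given, so the Snrpn row may not hold all reads of that gene.

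Ube3a, the maternally expressed ubiquitin ligase of this region, was at 79.6, 82.4 and 82.1 CPM in null libraries and 77.2, 72.1 and 71.4 CPM in heterozygous libraries. All null libraries lay above all heterozygous libraries, by a narrow margin, and the log2 fold change was 0.15 (95% interval -0.02 to 0.32; edgeR unadjusted p = 0.085, adjusted p = 0.767). The paternal antisense transcript Snhg14, known to silence the paternal Ube3a copy in neurons, was at 29.9, 31.3 and 43.9 CPM in null libraries and 23.9, 28.2 and 31.6 CPM in heterozygous libraries, with a fold change of 0.33 (edgeR adjusted p = 0.731). Snhg14 overlaps Ube3a on the other strand, so that without a known strand setting their reads cannot be told apart where they overlap.

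In the Dlk1-Dio3 domain on chromosome 12, Meg3 and Rtl1 were the members without overlap. Meg3 was at 3891, 2422 and 3783 CPM in null libraries and 3923, 4367 and 3962 CPM in heterozygous libraries. Null replicate 4 was far below the other 5 libraries, which lay between 3783 and 4367 CPM, and without it the log2 fold change of -0.28 (95% interval -0.72 to 0.16; edgeR adjusted p = 0.842) became -0.09. Rian, which hosts C/D box small nucleolar RNAs and lies downstream of Meg3 on the same strand, was at 912, 942 and 899 CPM in null libraries and 963, 966 and 935 CPM in heterozygous libraries. Its values spanned 1.07 times from lowest to highest, the narrowest range of the tested members, and null replicate 4 was not low. Mirg, a host of a large miRNA cluster, was at 14.7, 15.7 and 9.52 CPM in null libraries and 14.1, 12.8 and 11.5 CPM in heterozygous libraries, with null replicate 10 the lowest.

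The paternally expressed genes of that domain had lower levels per length, 6.96 CPM per kilobase for Dlk1 and 0.820 for Rtl1 in null libraries. Dlk1, a membrane protein related to Notch ligands, was at 32.4, 37.2 and 30.8 CPM in null libraries and 38.3, 42.0 and 29.2 CPM in heterozygous libraries, which overlap. Rtl1, a gene derived from a retrotransposon, was at 4.69, 3.50 and 4.69 CPM in null libraries and 5.06, 5.49 and 5.44 CPM in heterozygous libraries, with all null libraries below all heterozygous ones. The fold change of Rtl1 was -0.31 (95% interval -0.71 to 0.08; edgeR unadjusted p = 0.106, adjusted p = 0.798), and -0.18 without null replicate 4. The maternal copy makes a transcript antisense to Rtl1 that holds 6 miRNA hairpins, and their products pair perfectly with Rtl1 RNA. They are shown for that reason, 1 product for each of 3 hairpins, with the seed in capitals and no seed in common. Their hairpin rows had 0 counts in every library.
mmu-miR-127-3p: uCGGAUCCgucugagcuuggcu
mmu-miR-434-3p: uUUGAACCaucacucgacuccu
mmu-miR-136-5p: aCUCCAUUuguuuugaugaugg

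Igf2 and H19 share enhancers on chromosome 7 and varied together between libraries. Igf2, a growth factor made in the brain by meninges, choroid plexus and vessels, was at 306, 294 and 235 CPM in null libraries and 191, 393 and 326 CPM in heterozygous libraries. H19, the maternally expressed non-coding RNA beside it, was at 186, 239 and 149 CPM in null libraries and 123, 289 and 225 CPM in heterozygous libraries. For both genes heterozygous replicate 6 was the lowest and heterozygous replicate 7 the highest, a range of 2.06 times for Igf2 and 2.35 times for H19. The ratio of H19 to Igf2 CPM was 0.609, 0.814 and 0.636 in null and 0.644, 0.736 and 0.689 in heterozygous libraries. The fold changes were -0.12 (95% interval -0.83 to 0.58) and -0.15 (95% interval -1.12 to 0.83), both far smaller than their intervals. Without heterozygous replicate 6 they were -0.37 and -0.42 and without heterozygous replicate 7 they were 0.11 and 0.14, with edgeR adjusted p-values of 0.941 or more in these fits. The unadjusted edgeR p of Igf2 was 0.0124 without heterozygous replicate 6.

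Markers of the meninges were high and low in the same heterozygous libraries. The summed level of 11 meninges markers, none of them at 0, was 454, 508 and 386 CPM in null and 241, 590.3 and 543 CPM in heterozygous libraries, again lowest in heterozygous replicate 6 and highest in heterozygous replicate 7. Of these 11 genes, 2 had positive and 9 negative fold changes, with a median of -0.07, and 0 passed the test. The 9 choroid plexus markers summed to 817, 563 and 714 CPM in null and 591, 866 and 596 CPM in heterozygous libraries. The part of either tissue in the levels of Igf2 and H19 was not tested.

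**Figure D4:**
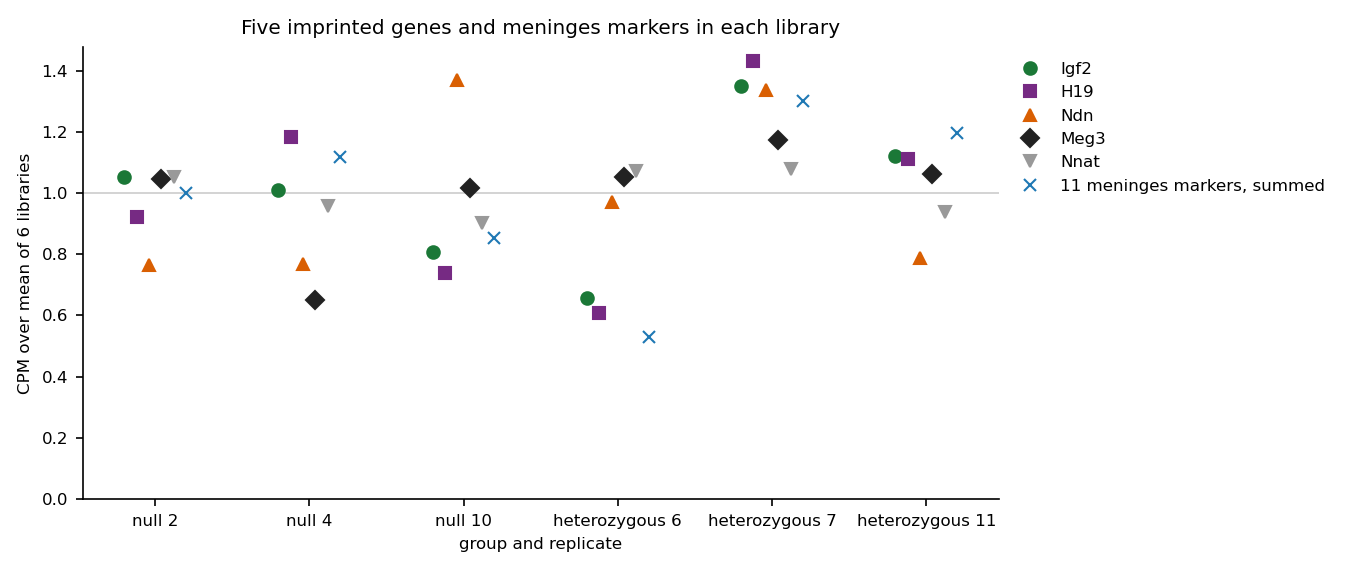
CPM of Igf2, H19, Ndn, Meg3 and Nnat, and the summed CPM of 11 meninges markers, each divided by its mean over the 6 libraries, for null libraries left and heterozygous libraries right; the axis starts at 0. Igf2, H19 and the meninges markers are lowest in heterozygous replicate 6 and highest in heterozygous replicate 7, Ndn is high in null replicate 10 and heterozygous replicate 7, and Meg3 is low in null replicate 4.

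Of the Kcnq1 domain next to H19, Cdkn1c and Kcnq1ot1 had the most counts. Cdkn1c, a maternally expressed inhibitor of cyclin-dependent kinases that promotes exit from the cell cycle, was at 147, 148 and 121 CPM in null libraries and 122, 154 and 116 CPM in heterozygous libraries. Kcnq1ot1, the paternal RNA that silences the domain in cis, was at 39.1, 22.3 and 25.7 CPM in null libraries and 38.7, 30.6 and 34.2 CPM in heterozygous libraries, and null replicate 2 was the highest of all. Both overlapped, with fold changes of 0.09 and -0.25 and intervals of -0.17 to 0.34 and -0.68 to 0.18. Without null replicate 2, the library with the high Rn45s, Kcnq1ot1 was at -0.52 (edgeR unadjusted p = 0.00331, adjusted p = 0.674), and without null replicate 4 at -0.09. With the Y-linked covariate the fold change of Kcnq1ot1 was -0.12. Cdkn1c ran from 0.01 without heterozygous replicate 11 to 0.22 without heterozygous replicate 7. Slc22a18 had a fold change of 0.46 (95% interval -0.46 to 1.38), and 0.26 to 0.82 without single libraries. As given above, it passed the filter by means of the null libraries.

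Among members that act on IGF signalling, fold changes were at most 0.16 in size. Igf2r, the maternally expressed receptor that clears IGF2, was at 73.0, 68.8 and 66.0 CPM in null libraries and 56.4, 62.6 and 67.3 CPM in heterozygous libraries, with a fold change of 0.16 (edgeR adjusted p = 0.805). Airn, the antisense RNA that silences paternal Igf2r outside neurons, was at 1.42, 1.24 and 0.918 CPM in null libraries and 1.26, 1.18 and 1.42 CPM in heterozygous libraries. Grb10, an adaptor that inhibits insulin and IGF receptors and is paternally expressed in neurons, was at 83.9, 77.7 and 78.8 CPM in null libraries and 77.0, 82.0 and 84.2 CPM in heterozygous libraries, with a fold change of -0.02 (95% interval -0.19 to 0.16). Plagl1, a zinc finger transcription factor known to regulate other imprinted genes, was at 62.2, 66.9 and 56.5 CPM in null libraries and 52.5, 62.5 and 54.7 CPM in heterozygous libraries and had a fold change of 0.13. Of 13 other IGF pathway genes 0 passed in either direction, 9 being positive and 4 negative with a median of 0.09. At an unadjusted p under 0.05, 2 of the 13 were higher in null and 0 lower, against 4.13% and 2.93% of all genes. All null libraries lay above all heterozygous ones in 3 of the 13, against 6.21% of all genes. The smallest p-values among them were those of Irs2, a docking protein of the insulin receptor (fold change 0.37, edgeR adjusted p = 0.56), and of Insr, the insulin receptor (fold change 0.22, adjusted p = 0.679). Igfbp6, which binds IGF2 with high affinity, had the largest fold change of these 13 in size, -0.72 (95% interval -1.47 to 0.03, edgeR adjusted p = 0.724), and was named after its value was seen.

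Peg13, a non-coding RNA of brain that lies in an intron of Trappc9, was at 433, 421 and 487 CPM in null libraries and 387, 398 and 418 CPM in heterozygous libraries. The groups did not overlap, null replicate 4 lying just above heterozygous replicate 11, and the log2 fold change was 0.16 (95% interval -0.00 to 0.32; edgeR unadjusted p = 0.0561, adjusted p = 0.719). Peg13 and Trappc9 lie on the same strand, so that reads within Peg13 cannot be told apart from reads of unspliced Trappc9. Trappc9, a subunit of a vesicle tethering complex with a maternal bias in brain, was at 82.1, 79.6 and 71.1 CPM in null libraries and 76.0, 70.9 and 69.6 CPM in heterozygous libraries, which overlap (fold change 0.10). Ago2, a neighbour with a maternal bias in brain that encodes the slicing Argonaute, was at 75.5, 85.8 and 73.4 CPM in null libraries and 50.4, 61.4 and 60.7 CPM in heterozygous libraries. Null libraries of Ago2 were all above heterozygous ones, with a fold change of 0.45 (edgeR unadjusted p = 0.00122, adjusted p = 0.387; DESeq2 adjusted p = 0.029). The other neighbours Kcnk9, a potassium channel, and Chrac1, a chromatin protein, had fold changes of -0.33 and -0.22, and were named after their values were seen. The 5 genes of this chromosome 15 region had fold changes of both signs.

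In the remaining members null and heterozygous libraries overlapped. Nnat was at 2504, 2275 and 2142 CPM in null libraries and 2551, 2567 and 2228 CPM in heterozygous libraries, and Blcap, in an intron of which it lies, was at 209.8, 209 and 229 CPM in null libraries and 211, 204 and 217 CPM in heterozygous libraries. Their fold changes were -0.09 (95% interval -0.25 to 0.08) and 0.04 (95% interval -0.11 to 0.18). Gnas was at 1682, 1802 and 1609.9 CPM in null libraries and 1794, 1807 and 1607 CPM in heterozygous libraries, with a fold change of -0.03 (95% interval -0.18 to 0.12). Inpp5f, a phosphoinositide phosphatase, was at 479, 537 and 523 CPM in null libraries and 537, 526 and 519 CPM in heterozygous libraries, with a fold change of -0.04. Nap1l5, a nucleosome assembly protein relative, was at 204, 298 and 298 CPM in null libraries and 289, 295 and 248 CPM in heterozygous libraries, null replicate 2 being the lowest. Impact, an inhibitor of the amino acid sensor kinase GCN2 in neurons, was at 62.8, 70.1 and 82.9 CPM in null libraries and 76.6, 77.0 and 82.6 CPM in heterozygous libraries, with null replicate 2 again the lowest. Fold changes were -0.05 for Nap1l5 and -0.13 for Impact.

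Peg10, a retrotransposon-derived gene, was at 133, 172 and 124 CPM in null libraries and 161, 154 and 126 CPM in heterozygous libraries. Sgce, the epsilon sarcoglycan that starts beside Peg10 on the other strand, had a fold change of -0.09, and that of Peg10 was -0.04. Asb4, a maternally expressed ankyrin repeat protein of hypothalamic neurons, was at 16.5, 21.98 and 17.1 CPM in null libraries and 21.2, 16.1 and 14.7 CPM in heterozygous libraries, with null replicate 4 and heterozygous replicate 6 the high ones. The 12 hypothalamus markers, none of them at 0, summed to 91.5, 84.7 and 104 CPM in null and to 100.5, 99.5 and 98.5 CPM in heterozygous libraries. Of these 12, 4 were positive and 8 negative with a median of -0.13, and 0 passed the test. At an unadjusted p under 0.05, 2 of the 12 (16.7%) were lower, against 2.93% of all genes. These 2 were the peptide precursor Pomc, at 1.46, 2.58 and 1.73 CPM in null libraries and 3.60, 20.9 and 4.27 CPM in heterozygous libraries (fold change -2.29, edgeR adjusted p = 0.697), and the homeobox gene Otp (fold change -0.47, edgeR adjusted p = 0.688). The part of hypothalamic tissue in the members' values was not tested.

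Within domains, the balance between partners was compared as the log2 ratio of their CPM in each library. Among 10 pairs the difference between null and heterozygous libraries ran from -0.31 for Copg2 over Mest to 0.38 for Cdkn1c over Kcnq1ot1. Ube3a over Snrpn was the pair without overlap between the groups, with ratios of 8.90, 9.30 and 9.04 in null and 8.86, 7.26 and 8.32 in heterozygous libraries (log2 difference 0.16, exact two-sided permutation p = 0.1, adjusted over the 10 pairs 0.5). A split of 3 against 3 cannot give a p below 0.1, and the other 9 pairs had p-values of 0.2 to 0.9. In the genome Ube3a overlaps Snhg14 and Snrpn overlaps Snurf, so the ratio of Ube3a to Snrpn may not be that of these partners alone. Meg3 over Dlk1 had a ratio of 65.0 in null replicate 4 and of 102 to 136 in the other 5 libraries.

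**Figure D5:**
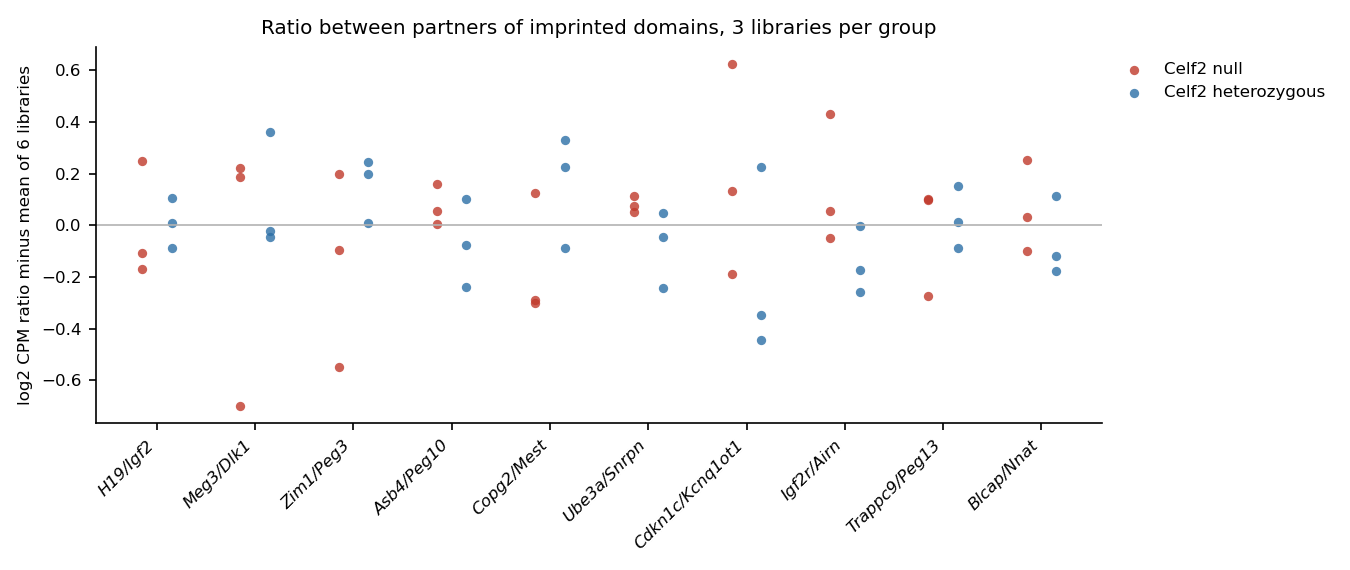
log2 ratio of CPM between partners of 10 imprinted pairs, minus the mean of the 6 libraries, with 1 point per library and null left of heterozygous. The groups overlap in 9 pairs. For Ube3a over Snrpn the 3 null points lie above the 3 heterozygous points, with 8.90 against 8.86 as the nearest ratios. Both genes of this pair overlap another counted gene.

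Across libraries the summed level of the paternally expressed members was 4804, 4798 and 4841 CPM in null and 4892, 5318 and 4527 CPM in heterozygous libraries. For the maternally expressed members it was 5513, 4139 and 5296 CPM in null and 5479, 6108 and 5569 CPM in heterozygous libraries. The low value of null replicate 4 is mostly that of Meg3, whose 2422 CPM there compare with 3891 and 3783 CPM in the other null libraries. The mean deviation of the 12 tested maternal members on the log2 scale, in which each gene counts alike, was higher in null libraries by 0.06, and -0.02 apart when Phlda2 was kept in, whereas the log2 ratio of the sums was -0.20. Null replicate 4 and heterozygous replicate 7 were the highest library for 12 members each, and heterozygous replicate 11 was the lowest for 10. The ratio of highest to lowest library had a median of 1.41 over the tested members and 1.35 over all genes tested.

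Of 36 further imprinted genes 35 were in the table and 33 were tested. EdgeR called 0 of them in either direction and DESeq2 called 1, Ago2, against 0.402% of all genes. At an unadjusted edgeR p under 0.05 there were 5 of the 33 (15.2%), against 7.06% of all genes. Of these 5, 2 were higher and 3 lower in null libraries, against 4.13% and 2.93% of all genes. Without overlap there were 6 (18.2%), against 12.7% of all genes. Of these 6, 1 had null libraries above and 5 below, against 6.21% and 6.47% of all genes. Of the 33, 12 had positive and 21 negative fold changes, with a median of -0.07. Beside Ago2 the smallest p was that of Slc22a3, an organic cation transporter at the Igf2r locus, at 3.82, 3.56 and 3.94 CPM in null libraries and 6.32, 5.12 and 5.10 CPM in heterozygous libraries (fold change -0.55, edgeR adjusted p = 0.545). Of 18 genes that set up or maintain imprints 16 were tested and 0 passed, 13 being positive and 3 negative with a median of 0.07. Smchd1, a chromatin protein that helps silence imprinted clusters and the inactive X, was at 86.4, 70.5 and 85.7 CPM in null libraries and 62.4, 64.9 and 77.7 CPM in heterozygous libraries (fold change 0.24, edgeR adjusted p = 0.71). Trim28, the corepressor that ZFP57 recruits, was at 423, 349 and 386 CPM in null libraries and 352, 336 and 349 CPM in heterozygous libraries (fold change 0.16, edgeR adjusted p = 0.731), and Zfp57 itself had a fold change of 0.04.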

How the data were processed

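The authors deposited raw read counts per gene symbol with a gene length in bases, for 3 null and 3 heterozygous hemibrains. Per the labels' protocols the kit took total RNA and kept strand, whereas the design text names poly(A) RNA, and the choice affects RNA without a tail. The submitters' processing notes list STAR and cutadapt among their tools and mm9 and hg19 as builds, and give neither a role. How reads were counted (tool, strand, annotation) is not given in the sources used here, and 12 members overlap another counted gene on the opposite strand.

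Genes passing edgeR's filterByExpr (minimum count 10) were tested with edgeR 4.0.16 (R 4.3.3, TMM, robust quasi-likelihood, Benjamini-Hochberg over 15925 genes, threshold 0.05). The standard error is the fold change over the root of F, and intervals are 95%. Every pair of libraries differed beyond sampling noise (smallest chi-square per gene 12.8). DESeq2 1.42.0, limma-voom (limma 3.58.1) and other settings were alternatives, and the steps were tested on simulated counts. Positions and overlaps came from GENCODE M21 (GRCm38) and promoters and miRNAs from RefSeq (GRCm38.p6), a build other than the one in the notes; 8 members have no promoter window in that table. Members named with values are those at an unadjusted p of 0.05, those without overlap, the highest of each domain, the partners of 10 pairs, and the 2 genes with the smallest p of each pathway list; Rian, Mirg, Magel2, Peg12, Sgce, Slc22a18 and Usp29 as further members, and Snhg14, Kcnk9, Chrac1, Zfp57, Igfbp6, Pomc, Otp, Nespas, Ddc and Th, were added after their values were seen. Members and lists were chosen with earlier results of these data known.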

Additional observations from a re-analysis of the deposited data

How the results depend on the processing

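The count of members called by edgeR was 0 in every setting, and DESeq2 called 1 of them. For all genes, calls numbered 1 as reported, 0 with DESeq2 size factors in edgeR, with a minimum of 1 CPM in 3 libraries, with limma-voom, without robust dispersion and without Rn45s, 2 with upper-quartile factors, 2 with library size alone, 3 without a low-count filter, 10 with Y-linked expression as a covariate, 64 with DESeq2, and 0 to 4 without single libraries. The count of members at an unadjusted p of 0.05 was 3 with the Y-linked covariate, 6 with limma-voom and without Rn45s, 7 with library size alone (5.59% of all genes) and without a filter (6.34%), 5 in the other settings with all libraries, and 3 to 6 without single libraries (3.70% to 9.69% of all genes). Members without overlap numbered 7 to 8 with all libraries (11.4% to 13.4% of all genes) and 9 to 14 without single ones (17.6% to 28.3%), with 14 of 38 (36.8%) against 25.8% of all genes without null replicate 10.

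Scaling by library size alone moved the median of all tested genes to -0.086. The paternal median was then -0.14 and the log2 ratio of the summed paternal members -0.11, against -0.07 and -0.03 as reported. Without single libraries the paternal median ran from -0.10 to -0.00466 (without heterozygous replicate 7) and the maternal median from -0.004 to 0.17. The log2 ratio of summed paternal members ran from -0.08 to 0.03, and that of maternal members from -0.28 to -0.08. With the mean of member deviations in place of the sum the maternal value was 0.060, and -0.019 with Phlda2 kept in, a choice made after seeing the data, against -0.20. Of 607 values of single members, 37 in 18 members had the opposite sign to the one reported, the largest of which was 0.15 in size as reported. No paired analysis was possible because the pup numbers are not shared between the groups. A fit without 1 library leaves 2 in that group.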

Other observations

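Ddc and Th, enzymes of dopamine synthesis that are imprinted in some tissues, were both lowest in null replicate 2. Ddc was at 4.89, 11.7 and 9.11 CPM in null libraries and 17.7, 10.5 and 11.5 CPM in heterozygous libraries. Th was at 4.65, 8.80 and 5.54 CPM in null libraries and 11.9, 7.17 and 6.92 CPM in heterozygous libraries. Their fold changes were -0.62 and -0.45 (edgeR adjusted p = 0.749 and 0.816), and both genes were chosen after their values were seen. Nespas, the antisense RNA of the Gnas domain, was at 0.945, 0.652 and 0.612 CPM in null libraries and 1.02, 1.25 and 1.31 CPM in heterozygous libraries, with a fold change of -0.70 (edgeR adjusted p = 0.668).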
